A study of Mus musculus with 8 samples.

Results

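Nodal is a secreted ligand of the TGF-beta superfamily, and its pathway was described here through 9 genes among the 54232 counted: the ligands Nodal and Gdf3, the co-receptor Tdgf1, the secreted antagonists Lefty1, Lefty2 and Cer1, the receptor Acvr2b, the intracellular inhibitor Smad7 and the nuclear partner Foxh1. The genes were chosen by name for their roles in the pathway, with earlier results of these data known. Their symbols were matched to the Ensembl identifiers of the count tables. Of the 9, 8 passed the filter on low counts in both experiments. Cer1 had 0 counts in all 8 libraries, a level that allows up to 3 counts or 0.163 to 0.189 reads scaled to library size (CPM) in a library, counting error only.

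RNA had been sequenced from mouse E14 embryonic stem cells (strain label 12910la) kept on gelatin in 15% serum with 10 ng/ml of the cytokine LIF. There were 4 groups of 2 libraries. The libraries labelled Ssrp1 KO came from cells in which Cas9 and a guide RNA had been used against Ssrp1, a subunit of the histone chaperone FACT, and were set against their own controls. The Usp7 knockdown (KD) libraries came from wild-type cells given an shRNA against Usp7, a deubiquitinase, from a pSuper puro plasmid (1000 ng, then 1 ug/ml puromycin from 24 h on, for 3 days), and were also set against their own controls. The labels give the genotype of both control groups as control only, and do not say whether the Usp7 controls received empty plasmid and puromycin, whether the KO cells are 1 clone, or whether replicates are separate cultures. P-values therefore measure the spread between these libraries, which may be technical.

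In early mammalian embryos Nodal binds activin receptors together with a co-receptor of the Cripto family, and the receptors phosphorylate Smad2 and Smad3, which join Smad4 and enter the nucleus. There they bind DNA with partners such as Foxh1. Lefty1 and Lefty2 are targets of this signal and secreted antagonists of it, a negative feedback loop, and both are known to be expressed in mouse embryonic stem cells in serum.

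The Lefty genes are close copies that lie near each other on chromosome 1, and the results below turn on them. In the mm10 build Lefty2 occupies chr1:180893108-180899103 and Lefty1 chr1:180935022-180938400, both on the plus strand, 35.9 kb apart. Their coding sequences are 1104 bases each and match at 1014 positions (91.8%) when laid over each other without gaps. The longest stretch without a difference is 140 bases, so a read inside it could come from either gene. The most different 60 bases of coding sequence, positions 34 to 93, counted from the start codon, differ at 18 bases and are shown because they tell the copies apart. They lie in 1 exon of each gene, at chr1:180935143-180935202 for Lefty1 and chr1:180893217-180893276 for Lefty2. The sequences are from GENCODE and GRCm38, on the coding strand, 5′ to 3′, and capitals mark bases that differ between the genes.
Lefty1: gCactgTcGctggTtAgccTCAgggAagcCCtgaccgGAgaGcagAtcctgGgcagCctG
Lefty2: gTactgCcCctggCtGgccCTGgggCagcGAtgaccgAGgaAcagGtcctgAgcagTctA
Of all 100-base words in the longest transcripts, 4.8% of those of Lefty1 and 3.07% of those of Lefty2 occur in the other gene, and no 150-base word is shared. With 50-base words the shares are 17.9% and 11.6%. The sources used here do not give read length or the handling of reads that map to more than 1 place, so the split of counts between Lefty1 and Lefty2 is uncertain, while their sum is less so.

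The other members lie apart from each other in mm10: Nodal at chr10:61417972-61425338, Gdf3 at chr6:122605403-122610087, Tdgf1 at chr9:110939603-110946158, Cer1 at chr4:82881751-82885148, Acvr2b at chr9:119402118-119434995, Smad7 at chr18:75367529-75395935 and Foxh1 at chr15:76668225-76669948. No member's exons overlap those of another annotated gene.

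Libraries held 15879056 to 18361130 counts. Usp7 transcript stood at 116.7 and 128.4 CPM in Usp7 KD libraries, against 385.6 and 380.6 CPM in their controls (log2 change -1.64, SE 0.19, adjusted p = 0.0012 by edgeR's quasi-likelihood test). That call was lost without KD replicate 2 (adjusted p = 0.13). Ssrp1 transcript stood at 399.6 and 119.7 CPM in the libraries labelled Ssrp1 KO, against 423.2 and 460.0 CPM in their controls, so KO replicate 1 was close to control level (log2 change -0.77, SE 0.45, adjusted p = 0.41). Without KO replicate 1 Ssrp1 changed by -1.94 and was called (adjusted p = 0.0021). Gdf3, Smad7 and Inhbb are also given without KO replicate 1, and were picked because they passed in that fit. It has 1 KO library, assumed to vary like the control group, so only their log2 changes are given from it. Counts from mitochondrially encoded genes made up 7.31% and 2.81% of the libraries labelled Ssrp1 KO, against 0.732% and 0.776% of their controls. The share was 2.44% and 2.03% in Usp7 KD libraries, against 2.23% and 1.67% in theirs. All 10 pluripotent cell markers listed, Pou5f1, Sox2 and Nanog among them, were detected in all 8 libraries, and none was called by edgeR in either experiment. With an unadjusted p under 0.05 there were 0 with the KO label and 2 in Usp7 KD, against 18.2% and 16.7% of all genes. In Usp7 KD DESeq2 called 1 (Klf4) and limma-voom 0.

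Lefty1 and Lefty2 fell in the libraries labelled Ssrp1 KO, and the other members tested did not pass the test. Lefty1 had 10.2 and 2.14 CPM in the libraries labelled KO, against 164.2 and 110.9 CPM in controls. Every control library was more than 10 times above either KO library. The mean was 6.17 ± 5.70 CPM in the libraries labelled KO and 137.6 ± 37.7 CPM in controls (SD, n = 2 each), a level 22.5-fold lower (log2 change -4.49, SE 0.60, 95% interval -5.81 to -3.17, edgeR adjusted p = 0.0072). Lefty2 had 30.4 and 7.35 CPM in the libraries labelled KO, against 138.8 and 187.5 CPM in controls. It was 8.67-fold lower (log2 change -3.12, SE 0.54, 95% interval -4.30 to -1.93, edgeR adjusted p = 0.015). Counts for both genes together were 617 and 173 in the libraries labelled KO, against 4617 and 5269 in controls, so the fall does not rest on how reads were divided between the copies.

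Both antagonists were lower in each library labelled KO, and lower in KO replicate 2, where Ssrp1 transcript was also lower, than in KO replicate 1. Without KO replicate 1 the log2 change was -6.07 for Lefty1 and -4.53 for Lefty2. Without KO replicate 2, with only the library whose Ssrp1 transcript was near control level left, the changes were -3.76 and -2.43. Both calls held with either library left out, where the single KO library is assumed to vary like the control group. Among all 15757 genes tested, 3.71% were called, 3.39% higher and 0.324%, or 51 genes, lower. By size of the fall Lefty1 was number 5 of those 51 and Lefty2 number 9, and by control CPM they were number 9 and number 7. The mitochondrial share above moved with the KO label too, and its part in these results was not tested.

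**Figure D1:**
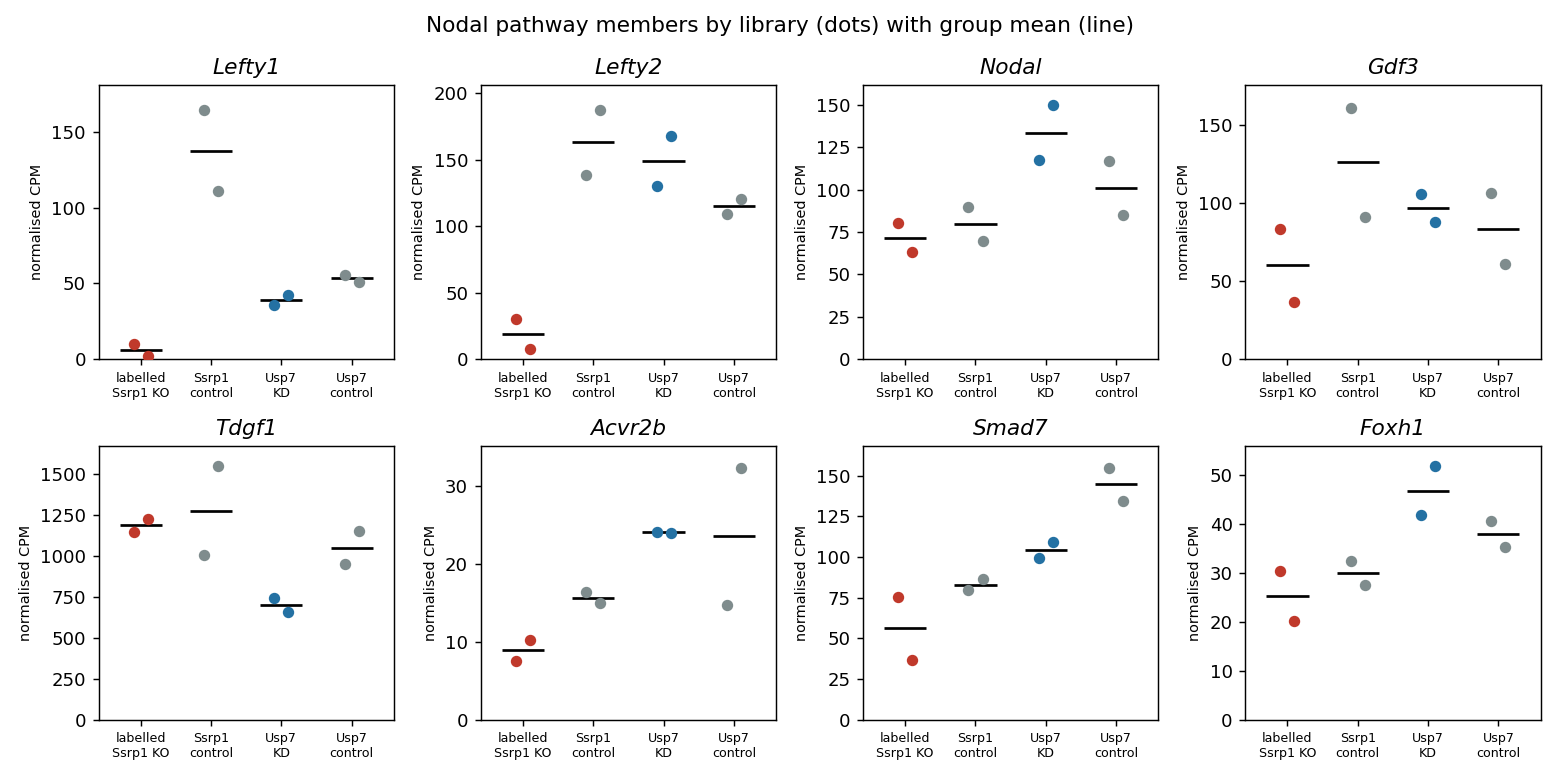
Level of each of the 8 detected members in each library, in CPM scaled within its own experiment (linear axis from 0), with dots for single libraries and lines for group means. Lefty1 and Lefty2 in the libraries labelled Ssrp1 KO lie below all libraries of the other 3 groups, at 2.14 to 30.4 CPM, while Nodal and Tdgf1 in those libraries overlap their controls.

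Of the ligands, Gdf3 was lower in the libraries labelled Ssrp1 KO without passing the test, and Nodal overlapped its controls. Nodal had 80.1 and 63.2 CPM in the libraries labelled KO, against 89.9 and 69.4 CPM in controls. These values overlapped, and the log2 change was -0.15 (SE 0.28, 95% interval -0.78 to 0.47, adjusted p = 0.83). Gdf3, a ligand related to Nodal that also uses a Cripto co-receptor in mouse, had 83.6 and 36.8 CPM in the libraries labelled KO, against 161.2 and 91.1 CPM in controls. Its libraries did not overlap, but the change of -1.07 (SE 0.40, unadjusted p = 0.023, adjusted p = 0.18) missed the threshold. Without KO replicate 1 Gdf3 changed by -1.85. With all 4 libraries it was called without a filter on low counts (adjusted p = 0.017) and with the replicate block, alone (0.025) or with correction for GC content and exon length (0.0038).

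No gene for reception or transduction of the signal was called with the KO label when all 4 libraries were used. Tdgf1, which encodes the co-receptor Cripto, had 1146 and 1226 CPM in the libraries labelled KO, against 1002 and 1547 CPM in controls. The KO values lay between the control values (log2 change -0.10, SE 0.33, 95% interval -0.84 to 0.63, adjusted p = 0.91). Acvr2b, a type II activin receptor, had 7.57 and 10.3 CPM in the libraries labelled KO, against 16.4 and 15.0 CPM in controls. Those libraries did not overlap, and the change was -0.81 (SE 0.40, adjusted p = 0.31). Foxh1, the forkhead factor that brings Smad complexes to DNA, had 30.4 and 20.1 CPM in the libraries labelled KO, against 32.4 and 27.5 CPM in controls, which overlapped (log2 change -0.25, SE 0.34, adjusted p = 0.76). Smad7, an inhibitor that blocks the type I receptors and is itself induced by TGF-beta signals, had 75.5 and 36.8 CPM in the libraries labelled KO, against 79.6 and 86.3 CPM in controls. The change was -0.56 (SE 0.34, adjusted p = 0.43), with KO replicate 1 just under the controls and KO replicate 2 far under them. Without KO replicate 1 Smad7 changed by -1.23.

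All 8 members tested thus had a log2 change below 0, with a median of -0.69 against 0.03 over all genes tested, of which 51.9% were above 0. The libraries did not overlap for 5 members, Gdf3, Lefty1, Lefty2, Acvr2b and Smad7, all of them lower in the libraries labelled KO. Of all genes tested, 22.7% were lower without overlap. An unadjusted p under 0.05 was reached by Lefty1, Lefty2 and Gdf3, or 3 of 8, against 18.2% of all genes.

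In Usp7 KD cells no member passed the edgeR test, and the Lefty genes kept levels close to those of their controls. Lefty1 had 36.0 and 42.4 CPM in Usp7 KD libraries, against 55.8 and 50.7 CPM in controls. It was lower without overlap, by 1.36-fold (log2 change -0.44, SE 0.19, 95% interval -0.86 to -0.02, unadjusted p = 0.043, adjusted p = 0.28). Lefty2 had 129.9 and 167.6 CPM in Usp7 KD libraries, against 109.5 and 120.8 CPM in controls. It was higher without overlap (log2 change 0.37, SE 0.20, 95% interval -0.06 to 0.80, adjusted p = 0.38). The sum of both was 2992 and 3825 counts in Usp7 KD libraries, against 2805 and 2920 in controls.

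Among the ligands, Nodal had 117.6 and 149.7 CPM in Usp7 KD libraries, against 116.7 and 85.2 CPM in controls (log2 change 0.40, SE 0.22, adjusted p = 0.38). Gdf3 had 106.1 and 87.9 CPM in Usp7 KD libraries, against 106.4 and 60.8 CPM in controls (log2 change 0.21, SE 0.25, adjusted p = 0.72). The Nodal libraries were just apart and the Gdf3 libraries overlapped.

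The co-receptor Tdgf1 had 742.0 and 656.8 CPM in Usp7 KD libraries, against 948.3 and 1151 CPM in controls. Both KD libraries were lower (log2 change -0.59, SE 0.22, 95% interval -1.07 to -0.10, unadjusted p = 0.022, adjusted p = 0.21). Acvr2b had 24.2 and 24.1 CPM in Usp7 KD libraries, against 14.8 and 32.3 CPM in controls, which lay on either side (log2 change 0.03, SE 0.31, adjusted p = 0.97). Foxh1 had 41.9 and 51.8 CPM in Usp7 KD libraries, against 40.5 and 35.4 CPM in controls (log2 change 0.30, SE 0.20, adjusted p = 0.49). Smad7 had 99.5 and 109.0 CPM in Usp7 KD libraries, against 154.6 and 134.8 CPM in controls. That was lower without overlap (log2 change -0.47, SE 0.18, 95% interval -0.88 to -0.07, unadjusted p = 0.026, adjusted p = 0.22).

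Of the 8 members tested in Usp7 KD, 5 were above 0 and 3 below, with a median of 0.12 against -0.02 over all genes tested. The count of called members was 0 of 8 by edgeR, where 2.99% of all 15915 genes were called (2.36% higher and 0.628% lower), and 0 by DESeq2 and by limma-voom. An unadjusted p under 0.05 was reached by 3 members, Tdgf1, Lefty1 and Smad7, against 16.7% of all genes. Libraries did not overlap for 3 higher members (Nodal, Lefty2 and Foxh1; 24.6% of all genes) and 3 lower ones (Tdgf1, Lefty1 and Smad7; 23.4% of all genes). Without control replicate 2, with 1 control library left, the log2 changes were -0.52 for Lefty1, -0.58 for Smad7 and 0.70 for Acvr2b. The closing section gives the counts of called members beside those of all genes with a library left out.

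**Figure D2:**
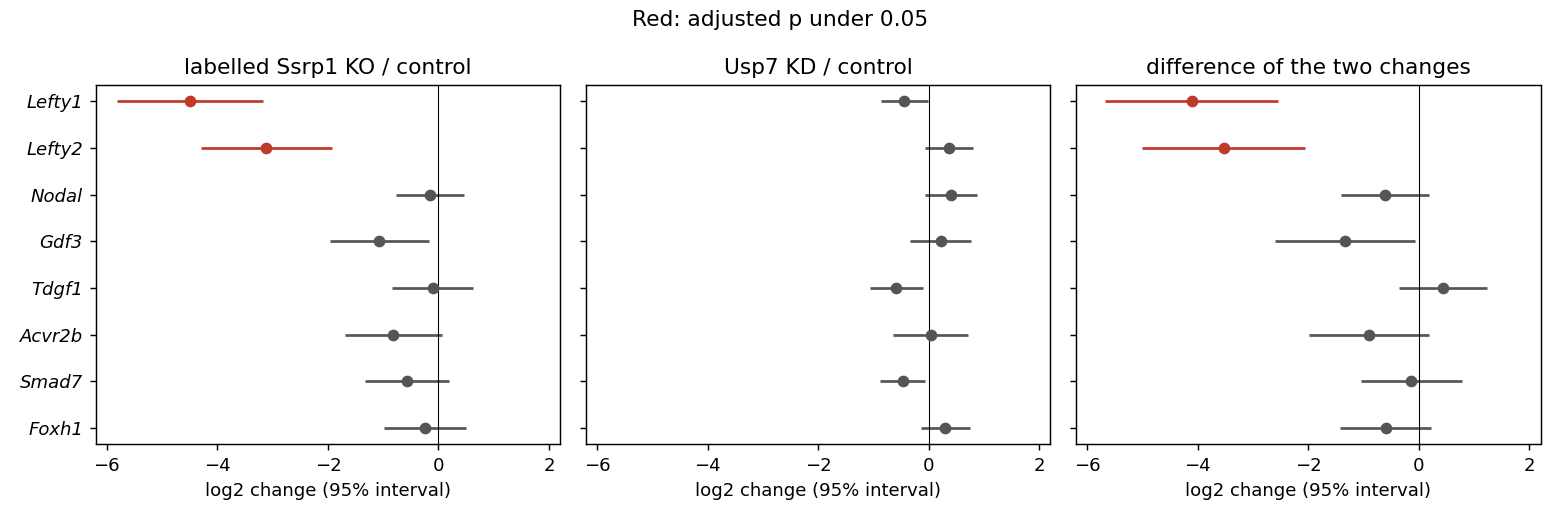
Log2 change of each member in the libraries labelled Ssrp1 KO and in Usp7 KD libraries, each against its own controls, and the difference of these changes, with 95% intervals from the edgeR fits and red for an adjusted p under 0.05. Lefty1 and Lefty2 stand at -4.49 and -3.12 for the KO label, while no change in Usp7 KD is larger than 0.59 in either direction.

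All 8 libraries were fitted together to test whether the responses were unequal, by subtracting the change with Usp7 KD from the change with the KO label. It differed for Lefty1 by -4.11 (SE 0.71, 95% interval -5.67 to -2.55, adjusted p = 0.027) and for Lefty2 by -3.53 (SE 0.67, 95% interval -5.00 to -2.06, adjusted p = 0.036). Both were among the 0.393% of 17052 genes called lower in that contrast. With single libraries left out the sizes ran from -5.63 to -3.40 for Lefty1 and from -4.90 to -2.87 for Lefty2, but the calls did not hold throughout. Lefty1 was no longer called without Ssrp1 control replicate 1 or without any single library of the Usp7 experiment (adjusted p = 0.092 to 0.16). Lefty2 was no longer called without any single control library of the Ssrp1 experiment or any single library of the Usp7 experiment (adjusted p = 0.069 to 0.21), nor after correction for GC content and exon length (adjusted p = 0.061). The other 6 members had differences between -1.34 for Gdf3 and 0.44 for Tdgf1, with adjusted p of 0.3 for Gdf3 and higher for the rest.

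The controls of the experiments were also compared with each other. Scaled over all 8 libraries and divided by exon length, Lefty1 had 102.1 and 65.7 CPM per kb in Ssrp1 controls, against 30.5 and 27.2 CPM per kb in Usp7 controls, with no overlap. The log2 difference was 1.54 (SE 0.48, 95% interval 0.48 to 2.60, unadjusted p = 0.0086, adjusted p = 0.072), 2.91-fold higher in Ssrp1 controls and just short of the edgeR threshold. It was called by DESeq2 (adjusted p = 0.008), by limma-voom (adjusted p = 0.035) and without a filter on low counts (adjusted p = 2.1e-06). It was also called with the replicate block (0.0042; 0.016 with correction for GC content and exon length) and in the joint fit without either KO library (0.0016 and 0.0018). Lefty2 differed by 0.66 (SE 0.46, adjusted p = 0.39). No member was called by edgeR, while 7.98% of all genes were. Of the other pathway genes described below, 35 were tested between the controls and 6 were called, all lower in Ssrp1 controls. Those were Usp9x, Acvr2a, Tgfbr1, Nomo1, Ski and Wwp1. What set the controls apart cannot be told from the design, in which experiment and control group go together.

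On this scale, which allows genes to be compared, Lefty1 averaged 3.62 ± 3.34 CPM per kb in the libraries labelled KO, 21.3 ± 2.5 in Usp7 KD libraries, 83.9 ± 25.7 in Ssrp1 controls and 28.9 ± 2.34 in Usp7 controls (SD, n = 2 each). No 2 of these groups overlapped. Lefty2 averaged 7.45 ± 6.44 in the libraries labelled KO, 54.3 ± 9.77 in Usp7 KD libraries, 66.5 ± 11.8 in Ssrp1 controls and 42.0 ± 2.38 CPM per kb in Usp7 controls. The KO libraries lay apart, and Usp7 KD and Ssrp1 control libraries overlapped. The ratio of Lefty1 to Lefty2 counts was 0.335 and 0.291 in the libraries labelled KO, against 1.18 and 0.591 in their controls, and 0.277 and 0.253 in Usp7 KD libraries, against 0.51 and 0.42 in theirs. In both experiments the ratio was thus below both controls in each perturbed library, with the limit on dividing reads between the copies given above.

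Tdgf1 was the most abundant member in every group, with a mean of 466 CPM per kb in the libraries labelled KO, 254 in Usp7 KD libraries, 516 in Ssrp1 controls and 381 in Usp7 controls. In the libraries labelled KO the order after Tdgf1 was Nodal (35.2 ± 5.91), Gdf3 (25.6 ± 14.1), Foxh1 (19.1 ± 5.5), Smad7 (12.8 ± 6.26), Lefty2, Lefty1 and Acvr2b (2.34 ± 0.497), with each of these overlapping the next. In Ssrp1 controls Tdgf1 was followed by Lefty1, Lefty2, Gdf3 (55.9 ± 23.7) and Nodal (40.7 ± 8.76), whose neighbours in this order overlapped, and then by Foxh1 (23.5), Smad7 (19.6) and Acvr2b (4.26), which did not. Both Lefty genes stood below the ligand Nodal in the libraries labelled KO and above it in Ssrp1 controls, with no overlap in either group.
In Usp7 KD libraries Nodal (60.8 ± 10.4) and Lefty2 overlapped at the head of that order, followed by Gdf3 (38.1), Foxh1 (32.7), Smad7 (22), Lefty1 and Acvr2b (5.85). In Usp7 controls Nodal (46.0 ± 10.7) was followed by Lefty2, Gdf3 (33.0), Smad7 (30.5), Lefty1, Foxh1 (26.5) and Acvr2b (5.69), and neighbours from Nodal down to Foxh1 overlapped.

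The rest of the pathway was read from 41 further genes of Nodal, activin and TGF-beta signalling. The central transducers were present in every library. Smad2 ranged from 28.1 to 42.9 CPM over the 8 libraries, Smad3 from 11.4 to 23.7 and Smad4 from 55.5 to 98.7. The type I activin receptor Acvr1b ranged from 42.1 to 85.6 CPM, whereas its relative Acvr1c had at most 1 count in a library. In the libraries labelled KO, 34 of the 41 genes were tested, 1 rose and none fell, with a median log2 change of 0.08 (0.03 over all genes). An unadjusted p under 0.05 was reached by 5 of the 34, against 18.2% of all genes. The gene that rose was Usp9x, a deubiquitinase known to act on Smad4. It had 292.8 and 262.4 CPM in the libraries labelled KO, against 41.6 and 114.1 CPM in controls (log2 change 1.83, SE 0.41, edgeR adjusted p = 0.036). This call was lost after correction for GC content and exon length (1.11, adjusted p = 0.10) and without Ssrp1 control replicate 1 (1.26). Usp9x was also called lower in Ssrp1 controls than in Usp7 controls (log2 difference -2.16, edgeR adjusted p = 0.013). Scaled over all 8 libraries, it had 3.02 and 7.89 CPM per kb in Ssrp1 controls and 17.59 and 31.12 in Usp7 controls. The libraries labelled KO had 20.06 and 17.95 CPM per kb, within the range of Usp7 controls. DESeq2 called 2 more of the 41 genes higher with the KO label, the type II receptor Acvr2a and the ubiquitin ligase Wwp1. The count of these genes called was 5 without KO replicate 1, 4 without KO replicate 2, 0 without control replicate 1 and 2 without control replicate 2.

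In Usp7 KD, 35 of the 41 genes were tested, 1 fell and none rose, with a median of 0.07 against -0.02 over all genes. The gene that fell was Inhbb, which encodes the beta-B subunit of activin, a ligand of the same receptors as Nodal. It had 55.3 and 42.9 CPM in Usp7 KD libraries, against 114.0 and 95.5 CPM in controls (log2 change -1.09, SE 0.20, edgeR adjusted p = 0.017). The call was lost without KD replicate 2 (-0.92, adjusted p = 0.62), in the joint fit of 8 libraries (adjusted p = 0.35) and without a filter on low counts (adjusted p = 0.11). Inhbb had 66.0 and 22.7 CPM in the libraries labelled Ssrp1 KO, against 84.3 and 102.2 CPM in their controls (log2 change -1.08, SE 0.42, adjusted p = 0.21). Without KO replicate 1 Inhbb changed by -2.10. With all 4 libraries it was called without a filter on low counts (-1.11, adjusted p = 0.02).

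Among 14 known targets of Nodal and Smad2 signalling, 9 were tested with the KO label, and the called ones were Lefty1 and Lefty2. The list includes members described above, and its median was -0.30. In Usp7 KD 11 were tested and 0 were called by edgeR, DESeq2 or limma-voom. An unadjusted p under 0.05 was reached by 4, against 16.7% of all genes. Of these 4, T passed the filter on low counts only through Usp7 KD libraries (11 and 37 counts, against 7 and 3 in controls). The median of the list there was 0.38.

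The BMP branch of the superfamily, which signals through other Smads, was covered by 23 genes. With the KO label 17 were tested, none was called by edgeR, and the median was 0.35. An unadjusted p under 0.05 was reached by 2 of the 17, against 18.2% of all genes. Bmpr2, a type II BMP receptor, had 33.95 and 18.5 CPM in the libraries labelled KO, against 5.91 and 10.8 CPM in controls (log2 change 1.64, SE 0.44, adjusted p = 0.069). It was the 1 gene of the branch called by DESeq2 (adjusted p = 0.011), and limma-voom called 0. Bmpr2 was also called without a filter on low counts (adjusted p = 0.0053), with the replicate block (0.045), in the joint fit (0.036) and without KO replicate 2 (2.01, adjusted p = 8.5e-05). The type I receptor gene Bmpr1a changed by 0.77 (SE 0.33, adjusted p = 0.25) and the BMP target Msx2 by 0.90 (SE 0.57, adjusted p = 0.45). In Usp7 KD 18 were tested and 1 rose. That was Id2, an inhibitor of helix-loop-helix factors and a known BMP target, with 14.9 and 24.1 CPM in Usp7 KD libraries, against 6.89 and 8.16 CPM in controls (log2 change 1.37, SE 0.28, edgeR adjusted p = 0.028). The call was lost without KD replicate 2 (0.98, adjusted p = 0.69), without control replicate 1 (adjusted p = 0.057), in the joint fit (adjusted p = 0.25) and without a filter on low counts (adjusted p = 0.15). DESeq2 called 2 genes of the branch higher, Id2 and Id1, a related inhibitor, and limma-voom called Id2 and Smad9, a BMP Smad. Id1 had 142.1 and 234.3 CPM in Usp7 KD libraries, against 115.5 and 99.1 CPM in controls (log2 change 0.81, edgeR adjusted p = 0.11). Smad9 had 22 and 17 counts in Usp7 KD libraries, against 0 and 3 counts in controls (edgeR adjusted p = 0.063). It passed the filter on low counts only through Usp7 KD libraries. The median over the tested genes of the branch was 0.58, and 8 of 18 had an unadjusted p under 0.05, against 16.7% of all genes.

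**Figure D3:**
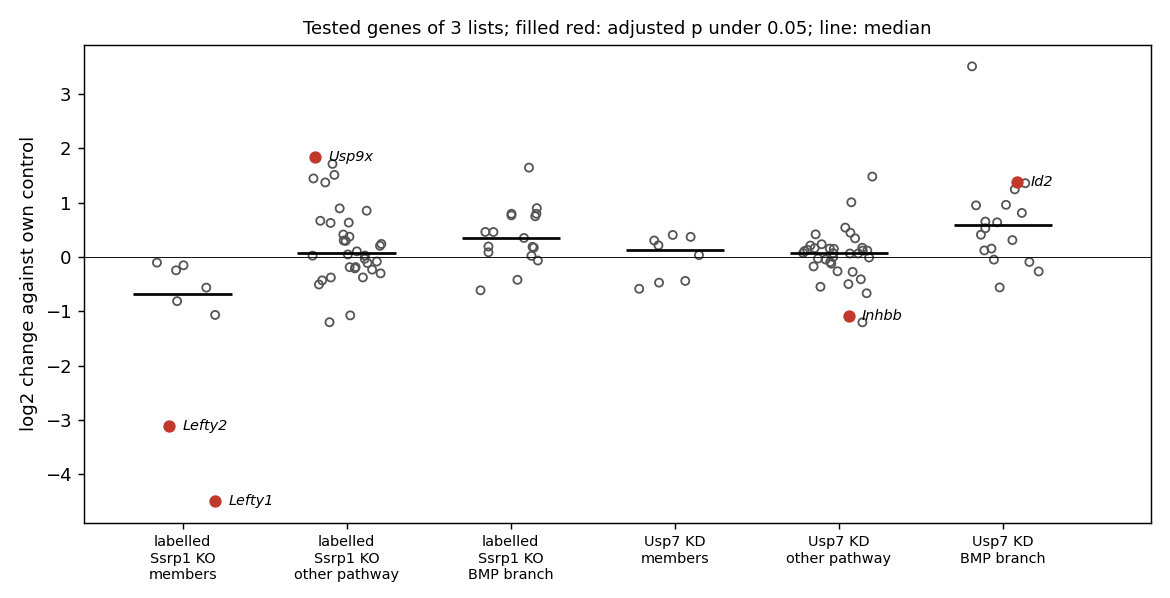
Log2 change of each tested gene among the members, the other pathway genes and the BMP branch in the libraries labelled Ssrp1 KO and in Usp7 KD libraries, each against its own controls, with 1 circle a gene, lines at the medians and filled red circles for an adjusted p under 0.05. With the KO label Lefty1 and Lefty2 lie far below the remaining points, and the medians of the other pathway genes are 0.08 and 0.07.

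Some markers of other cell types were higher with the KO label as well, few of them called by edgeR. Of 11 primitive endoderm markers 9 were tested and 1 rose, Dab2, an endocytic adaptor, with 5.40 and 8.18 CPM in the libraries labelled KO, against 0.591 and 1.25 CPM in controls (log2 change 2.87, edgeR adjusted p = 0.035). Dab2 was not called without either control library (adjusted p = 0.48 and 0.083). The tested markers had a median of 1.82, against 0.03 over all genes. An unadjusted p under 0.05 was reached by 7 of 9, against 18.2% of all genes. Dab2, Gata6 and Sox17 passed the filter on low counts only through the libraries labelled KO. Such a filter favours a rise, so this share and median are no support for one. All 11 markers together came to 207 and 258 CPM in the libraries labelled KO, against 133 and 168 CPM in controls. Between the controls 10 of these markers were tested, with 0 called and 0 higher in Ssrp1 controls than in Usp7 controls (median -0.52). Gata6 had 124 and 60 counts and Sox17 38 and 33 counts in the libraries labelled KO, against 4 and 26 counts and 4 and 6 counts in controls, neither of them called by edgeR. DESeq2 called 5 primitive endoderm markers higher, Dab2, Gata6, Pdgfra, Col4a1 and Col4a2. Of 8 trophoblast markers 5 were tested and 1 rose, Gata3, with 14 and 15 counts in the libraries labelled KO, against 0 and 1 in controls (28.5 times, counting interval 4.73 to 1170). Gata3 was called by limma-voom, and it was not called by DESeq2, without either control library or after correction for GC content and exon length. DESeq2 called 1 trophoblast marker, Hand1, with 56 and 80 counts in the libraries labelled KO, against 12 and 13 counts in controls (log2 change 2.40, edgeR adjusted p = 0.061). The tested trophoblast markers had a median of 1.58, against 0.03 over all genes. An unadjusted p under 0.05 was reached by 2 of 5, against 18.2% of all genes. Gata3 passed the filter on low counts only through the libraries labelled KO. The summed trophoblast level was 18.9 and 25.0 CPM in the libraries labelled KO, against 7.03 and 11.3 CPM in controls, and Tpbpa was at 0 in all 8 libraries. Primitive streak and mesoderm markers summed to 13.8 and 13.3 CPM in the libraries labelled KO, against 5.24 and 8.55 CPM in controls. Usp7 controls summed to 13.5 and 14.7 CPM. Of 7 streak and mesoderm markers tested between the controls, 0 were higher in Ssrp1 controls (median -1.11). With the KO label 0 of 4 tested were called by edgeR, DESeq2 or limma-voom or had an unadjusted p under 0.05. Formative and primed markers summed to 529 and 315 CPM in the libraries labelled KO, against 333 and 399 CPM in controls, and fibroblast markers to 15.5 and 40.2 CPM, against 21.2 and 22.1 CPM. None of the 7 and 4 tested was called by any of the 3 tools, with 1 and 0 at an unadjusted p under 0.05. In bulk RNA fewer cells with a transcript and less transcript per cell cannot be told apart, and the part of other cell types in the Lefty result was not tested. The pluripotent markers summed to 7550 and 7110 CPM in the libraries labelled KO, against 10400 and 7430 CPM in controls.

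In Usp7 KD the trophoblast list summed to 10.6 and 15.9 CPM, against 8.10 and 9.59 CPM in controls. All 6 markers tested had an unadjusted p under 0.05, against 16.7% of all genes. Of their log2 changes 5 were above 0 and 1 below 0 (Ascl2, -0.89), with a median of 1.76, against -0.02 over all genes. Cdx2 had 8 and 7 counts in controls and 21 and 42 in Usp7 KD libraries. Gata3 had 4 and 2 counts in controls and 13 and 21 in Usp7 KD libraries. These genes and Krt7 passed the filter on low counts only through Usp7 KD libraries. Such a filter favours a rise, so this share and median are no support for one. Of the 6 markers 1 was called by edgeR and 0 by DESeq2 or limma-voom. Krt7, a keratin, rose there with 29 and 35 counts in Usp7 KD libraries, against 5 in each control (log2 change 2.56, edgeR adjusted p = 0.037). The call was lost in 7 alternatives: by DESeq2 (adjusted p = 0.067), by limma-voom (0.052), without a filter on low counts (0.11), in the joint fit (0.32), and without control replicate 1 (0.069), KD replicate 1 (0.11) or KD replicate 2 (0.54). Primitive endoderm markers summed to 146 and 168 CPM in Usp7 KD libraries, against 158 and 190 CPM in controls, with 0 of 9 called by edgeR, DESeq2 or limma-voom and 2 with an unadjusted p under 0.05. Of the 9 log2 changes there, 7 were above 0 and 2 below, with a median of 0.29 against -0.02 over all genes. Gata4 changed by 1.09 and Dab2 by 1.11 (edgeR adjusted p = 0.15 each), and the 2 below 0 were Lamb1 (-0.41) and Lama1 (-0.27).

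Genes with levels most like those of the Lefty genes were found by correlating log2 CPM over the 8 libraries, each centred on the mean of its experiment, among 10819 genes. These values describe 8 points that share depth and the low KO libraries. Lefty1 was most like Slc20a2 (r = 0.999), Enpp3 (0.994), Rtel1 (0.990), Adk (0.988) and Nf2 (0.987). Lefty2 was most like Adam23 (0.984), Rtel1 (0.983), Gigyf1 (0.981), Ntn1 (0.976) and Rai1 (0.975). A correlation does not measure the size of a change, and all of these genes changed less than the Lefty genes with the KO label. Their log2 changes there were -1.04 for Slc20a2, -0.90 for Rtel1, -1.12 for Adk, -0.75 for Nf2, -0.99 for Adam23, -0.59 for Gigyf1 and -1.36 for Rai1, none called. Enpp3 (-2.02, edgeR adjusted p = 0.018) and Ntn1 (-2.55, edgeR adjusted p = 0.011) were called. Lefty1 and Lefty2 had r = 0.967 with each other. Of the other members, Gdf3 and Smad7 came closest to Lefty1 (0.819 each), followed by Foxh1 (0.622), Acvr2b (0.585), Nodal (0.368) and Tdgf1 (0.136).

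A few neighbours of the Lefty genes were examined after their values had been seen. Tmem63a, which encodes a membrane channel protein, follows Lefty1 at chr1:180942344-180975112, and it fell in the libraries labelled KO. It had 2.90 and 4.23 CPM in the libraries labelled KO, against 11.95 and 16.5 CPM in controls (log2 change -2.0, SE 0.47, edgeR adjusted p = 0.043). The call was lost after correction for GC content and exon length and by limma-voom (adjusted p = 0.052 each) and without either control library (0.22 and 0.26). Tmem63a changed by -0.65 in Usp7 KD (adjusted p = 0.25). Sde2, before Lefty2, changed by -0.43 with the KO label (adjusted p = 0.44), and Ephx1, an epoxide hydrolase gene after Tmem63a, by -0.65 (adjusted p = 0.62). In Usp7 KD Ephx1 rose, with 35.8 and 35.4 CPM in Usp7 KD libraries, against 17.8 and 18.2 CPM in controls (log2 change 0.98, edgeR adjusted p = 0.025). Without either KD library Ephx1 was not called (adjusted p = 0.19 and 0.49), nor in the joint fit (0.59) or without a filter on low counts (0.11).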

How the data were processed

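The deposited values are raw read counts per gene, in 1 table for each experiment. Per the submitters' processing notes, the tools were cutadapt, featureCounts and HISAT2, and the build was mm10. The sources used here give no versions, strand mode or annotation release. Per the labels' protocols, libraries came from fragmented mRNA with random primers. All 92 spike-in rows held 0 counts, so no external standard was available. Symbols, coordinates, exon lengths and sequences came from GENCODE M21 (GRCm38), and 67 identifiers had no symbol.

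Each experiment was tested on its 4 libraries with edgeR 4.0.16 in R 4.3.3: filterByExpr, TMM scaling, the quasi-likelihood test, and Benjamini-Hochberg adjustment over all genes tested. Calls needed an adjusted p under 0.05. The difference between the experiments, and that between their controls, came from a joint fit of the 8 libraries. Standard errors follow from the log2 change and its F value. CPM values are scaled within an experiment, except the values per kb and the summed marker levels, which are scaled over all 8 libraries. Alternatives were RLE size factors, DESeq2 1.42.0, limma-voom (limma 3.58.1), other filters, a replicate block, a GC content and exon length offset (spline, 5 degrees of freedom), the joint fit, and leaving out each library. The fitting steps were first run on simulated data with known changes.

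Replicates differed by more than sampling noise (chi-square per gene 11.8 to 79.3), so none was taken for the same library sequenced again. The fits used them as replicates, and these values do not show whether they are separate cultures. The members and the gene lists were chosen with earlier results of these data known. All members are named. Of the other lists, every called gene is named, or, where none was called, those with the smallest p and, in the higher group, a mean of 5 CPM or more (all 3 for the BMP and primitive endoderm lists, none for the Smad2 targets and the other marker lists). The transducers, Gata6, Sox17 and genes called only by another tool were chosen after their values were seen. So were Inhbb in the Ssrp1 experiment, Dab2 in Usp7 KD and the neighbours of the Lefty genes. The correlations used a prior count of 2 and genes with a mean CPM of at least 5. Some items are not reported here.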

Additional observations from a re-analysis of the deposited data

Results flagged for a closer look

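Lefty1 and Lefty2 changed differently in the 2 experiments by a direct test. The call was lost in 5 of 16 alternatives for Lefty1 and in 7 of 16 for Lefty2. The change in the libraries labelled Ssrp1 KO minus that in Usp7 KD libraries was -4.11 for Lefty1 (edgeR adjusted p = 0.027) and -3.53 for Lefty2 (edgeR adjusted p = 0.036), on the log2 scale. Both libraries labelled KO were below both of their controls for each gene, while in Usp7 KD Lefty1 was lower and Lefty2 higher in 2 of 2 libraries.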

How the results depend on the processing

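The calls of Lefty1 and Lefty2 with the Ssrp1 KO label held under all 13 alternatives run (adjusted p = 5.7e-29 to 0.028 and 1e-16 to 0.046). Members called with the KO label numbered 2 to 4 with single libraries left out. For all genes in that comparison (585) the count was 1099 with DESeq2, 1497 without a filter, 988 with the replicate block, 307 with the GC and length offset, 1346 with both, 1314 in the joint fit, and 20 to 1884 with a library left out. For the other pathway genes (1) it was 3, 4, 2, 0, 2 and 3 in that order, and 0 to 5.

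In Usp7 KD members called (0) were 1 with block and offset (Tdgf1) and 0 to 3 with a library left out. Other pathway genes called (1) were 0 without a filter, 2 with the offset, 2 with block and offset, 0 in the joint fit, and 0 to 6 with a library left out. All genes called (476) were 100 without a filter, 1471 with the replicate block, 759 with the offset, 1787 with both, 78 in the joint fit, and 42 to 3770 with a library left out.

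In the difference between the experiments members called (2) were 1 with the offset and 0 to 2 with a library left out. All genes called (171) were 649 with DESeq2, 111 with limma-voom, 945 without a filter, 525 with the block, 365 with block and offset, and 1 to 1109 with a library left out. Between the controls members called (0) were 1 with DESeq2, 1 with limma-voom, 2 without a filter, 2 with the block, 1 with block and offset, and 0 to 2 with a library left out. All genes called (1361) were 2230, 2539, 2491 and 2168 with DESeq2, no filter, the block, and block with offset, and 135 to 2815 with a library left out.

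Signs turned only for members that were not called. With a library left out, the log2 change with the KO label ran from -0.40 to 0.0257 for Nodal (0.0033 without KO replicate 2), from -0.40 to 0.22 for Tdgf1 and from -0.64 to 0.018 for Foxh1. In Usp7 KD it ran from -0.14 to 0.68 for Gdf3 and from -0.42 to 0.70 for Acvr2b. For Smad7 the difference between experiments was 0.15 with the offset, 0.0020 with block and offset, and -0.77 to 0.26 with a library left out. Between controls Nodal ran from -0.41 to 0.091 (0.036 without Ssrp1 control replicate 2) and Acvr2b from -0.86 to 0.25. The cause of these shifts was not tested.

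Replicate numbers were not treated as pairs in the main fits. Deviations of same-numbered libraries from their group means correlated at 0.177 in the Ssrp1 experiment and 0.123 in the Usp7 experiment. With 2 libraries a group, both pairs of an experiment give the same value by construction. These values therefore cannot decide whether same-numbered libraries are pairs. With the replicate block Gdf3 was also called with the KO label (-1.13, adjusted p = 0.025). With 2 libraries a group, 1 library can decide whether a member passes, and Cer1 could not be measured at this depth.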
